A study of Mus musculus with 6 samples.

Results

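The array carried 61 mouse microRNAs (miRNAs) whose names begin with miR-297, miR-466, miR-467 or miR-669, of 1247 mouse miRNAs in all. They were taken by name alone: 3 of the miR-297, 23 of the miR-466, 12 of the miR-467 and 23 of the miR-669 subfamily, measured by 162 of the array's 3105 probes. Whole kidney of male C57BL/6 mice, a standard inbred strain, was profiled at 2 months (young, 3 arrays) and at 20 months (aged, 3 arrays), with no other treatment or allele in the labels. The series design speaks of separate RNA preparations and the labels do not tie them to animals, and a p-value therefore covers only the scatter of these preparations, part of which may be technical. Each preparation went onto its own Cy3 array, and all arrays lay on 1 slide, with the 3 young arrays and aged array 1 in slide row 1 and aged arrays 2 and 3 in slide row 2. In bulk tissue, fewer cells of a type and less RNA per cell cannot be told apart.

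A miRNA is a short RNA cut from a hairpin precursor, and either strand of the hairpin (the 5p or the 3p arm) can be loaded into an Argonaute protein to repress messenger RNAs that pair with its seed. The subfamilies described here belong to a rodent-specific expansion, most copies of which lie in an intron of Sfmbt2, an imprinted gene for a Polycomb group protein with a role in placenta. The 5p arms are rich in alternating U and G and the 3p arms in A and C, so that the copies resemble each other and also resemble simple repeats elsewhere in the transcriptome. Array probes for such sequences can bind close relatives, and the signal of one probe is not an amount of RNA that can be set against that of another.

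The name of the host gene covers most of the members and not the 2 with the strongest signal. In RefSeq (GRCm38.p6, used for names and neighbours), 49 members matched hairpins lying entirely within Sfmbt2, 3 matched hairpins both there and elsewhere, 8 matched hairpins outside it, and miR-466a-5p matched none. All 72 miRNA hairpins within Sfmbt2 carry names of these subfamilies, as a symbol or, for Gm25285 (mir-466c-3), as a synonym, and 70 of them matched members on the array. Among the 8 outside were miR-466i-5p and miR-669n, the members with the highest signal, together with miR-466j. Of the 10 members well above background on at least 1 array, 7 lay within Sfmbt2 and 3 outside. The set is therefore named here by its sequence family and not by the host gene.

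RefSeq held mature sequences for 7 of the 61 members, all from hairpins outside Sfmbt2, and they show both faces of the repeat. Capitals mark the seed, bases 2 to 8 from the 5′ end. The first 3 are rich in U and G, and the other 4 in A and C.
miR-669n: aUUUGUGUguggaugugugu
miR-466j: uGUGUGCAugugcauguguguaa
miR-466k: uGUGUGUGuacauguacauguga
miR-466i-3p: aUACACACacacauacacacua
miR-466q: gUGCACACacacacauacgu
miR-467f: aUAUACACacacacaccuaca
miR-467g: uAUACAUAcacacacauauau

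No seed was shared, with 7 distinct seeds among the 7 sequences. U and G made up 90% of miR-669n (GRCm38.p6 chr3:115979905-115979924, plus strand), 73.9% of miR-466j (chr10:60960802-60960824, plus strand) and 69.6% of miR-466k (chr3:85467396-85467418, plus strand). A and C made up 86.4% of miR-466i-3p (chr13:17747552-17747573, plus strand), 85.7% of miR-467f (chr11:69635419-69635439, minus strand), 71.4% of miR-467g (chr5:34732872-34732892, minus strand) and 70.0% of miR-466q (chr3:28419988-28420007, plus strand). The 3 sequences rich in U and G hold the letters UGUGUG on the mature strand, and the other 4 hold ACACAC, each searched on the mature strand alone. Of the 1010 other array miRNAs with a RefSeq sequence, 16 held UGUGUG (1.58%) and 7 held ACACAC (0.693%). The letters AUACAU were in 1 of the 7 members, miR-467g, and in 2 of the others (0.198%). A match describes the letters only.

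Detected members were named as 5p arms or carried no arm in the name, and no 3p member was detected. The deposited spot intensities were scaled to the 75th percentile of the probes detected on every array and are given as a percentage of it. The scanner software marks spots that stand well above background, and a miRNA counts as detected here if more than 50% of the kept spots of at least 1 of its probes have the mark. On that measure 10 of the 61 members (16.4%) were detected on at least 1 array, against 212 of the other 1186 miRNAs (17.9%). They were 8 of 25 5p members, 2 of 10 members with no arm in the name (miR-669n and miR-466j) and 0 of 26 3p members. Among the other miRNAs of the array, 99 of 448 5p forms and 80 of 458 3p forms were detected. A count of 0 here means that no probe passed the mark, not that the RNA was absent. These counts are by arm name and not by base content. Of the 3 members printed above as rich in U and G, miR-466k was below 0 on all 6 arrays.

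By subfamily, 4 of 23 miR-466 members and 6 of 23 miR-669 members were detected, against 0 of 12 miR-467 and 0 of 3 miR-297 members. The median signal in young kidney was 1.78% of the 75th percentile for the 5p members and 0.188% for the 3p members. The lowest signal of a single probe well above background on an array lay between 1.80% and 3.07%, while a member's signal is summed over its probes. The scanner software's own flag, which is more permissive, called 14 members present on at least 1 array. It added miR-466c-5p, miR-466f-5p, miR-467c-5p and miR-669f-5p, again all 5p, and again no 3p member (0 of 26).

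The brightest 5p member of each subfamily was miR-466i-5p, miR-669e-5p, miR-467c-5p and miR-297c-5p, and the last of these was detected on no array by either measure. miR-297c-5p stood at 1.91%, 1.64% and 1.60% of the 75th percentile on the young arrays, then 1.95%, 0.715% and 1.08% on aged arrays 1, 2 and 3. Signal was summed over the 1 to 4 probes of each member, so ranks by signal rest in part on the number of probes. The brightest 3p members were miR-467a-3p, miR-669p-3p, miR-466h-3p and miR-297a-3p. miR-467a-3p, the highest of them, stood at 1.84%, 1.38% and 1.92%, then 1.71%, 0.623% and 1.15%, and miR-297a-3p was below 0 on every array but aged array 3. Among members with no arm in the name, miR-669n, miR-466j and miR-467f were the brightest of their subfamilies, and miR-467f stayed undetected, at 1.49% or less on each array.

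**Figure D1:**
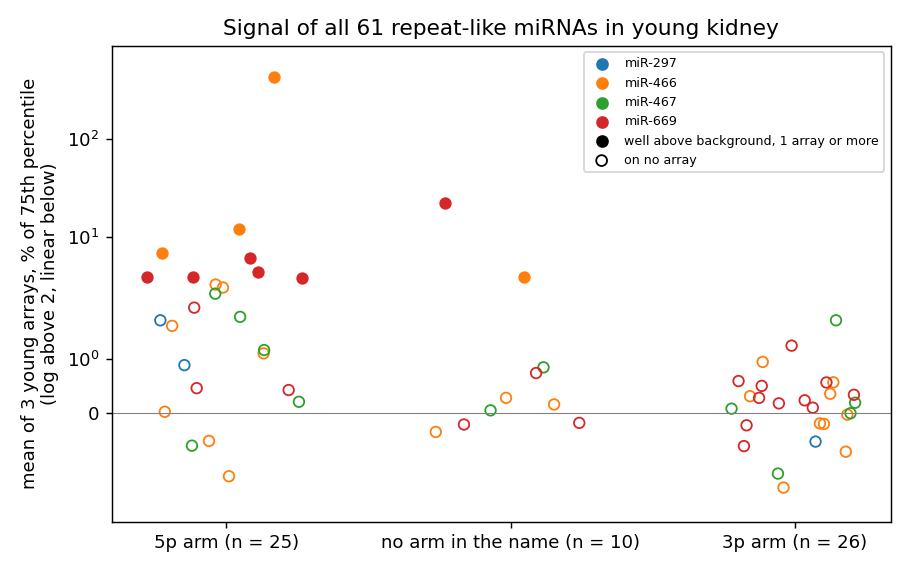
Mean signal of the 3 young arrays (vertical axis, percent of the array's 75th percentile, logarithmic above 2 and linear below) for all 61 miRNAs by arm and subfamily; filled points were well above background on at least 1 array. Filled points stand in the 5p column and, for 2 miRNAs, in the column without an arm, and none of the 26 3p points is filled.

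miR-466i-5p was the one member well above background on all 6 arrays. Its signal was 398%, 464% and 440% of the 75th percentile on the young arrays and 557%, 225% and 137% on aged arrays 1, 2 and 3. Aged array 1 was thus the highest of all 6, and aged arrays 2 and 3 lay below every young array, so the groups overlapped. In unscaled intensity units it read 5633, 5582 and 5236 on the young and 6525, 4613 and 1758 on the aged arrays, so that aged array 2 stood at 84.1% of the young mean before scaling and at 51.8% after it. The 75th percentile of aged array 2 was the highest of the 6 (2054 units). The log2 difference of the scaled values, aged minus young, was -0.75 ± 0.48 (SE, n = 3 per group; limma adjusted p = 0.351).

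miR-669n, whose sequence stands above, was detected on all 3 young arrays and on aged arrays 1 and 2. It stood at 25.0%, 21.5% and 19.8% on the young arrays and at 22.1%, 7.14% and 2.92% on the aged arrays. Aged array 1 lay inside the young range and the other two aged arrays below it. The log2 difference was -1.51 ± 0.68 (limma adjusted p = 0.211), with an SD of 0.17 among young and 1.46 among aged arrays. In unscaled intensity units it read 354, 259 and 236 in young and 259, 147 and 37.5 in aged kidney, and aged array 2 then stood at 51.8% of the young mean, against 32.3% after scaling. For all 6 tested members, aged array 1 was higher than aged array 2, and aged array 2 higher than aged array 3, without scaling too.

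miR-466h-5p, studied as a pro-apoptotic miRNA in cultured cells, was detected on the 3 young arrays and on aged array 1. Its signal was 13.0%, 11.8% and 11.4% on the young arrays, then 11.5%, 3.43% and 1.47% on the aged arrays. Aged array 1 lay within the young range and the other two aged arrays lay far below it. The difference was -1.35 ± 0.52 (unadjusted p = 0.0399, limma adjusted p = 0.164), the single member of the 6 tested with an unadjusted p under 0.05. Of all 193 tested miRNAs, 30 (15.5%) were lower at that level. Values under the floor of 2.68% (-5.22 in log2) were set to it before the test, which touched aged array 3 here.

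miR-466m-5p and miR-669e-5p, both from hairpins within Sfmbt2, showed the same order of arrays. miR-466m-5p stood at 7.98%, 6.86% and 5.72% in young kidney and at 6.81%, 2.02% and 0.135% in aged kidney. miR-669e-5p stood at 6.67%, 6.05% and 5.28% in young kidney and at 6.03%, 1.77% and 0.345% in aged kidney. For both, aged arrays 2 and 3 were under the floor and not well above background. The floored differences were -0.89 ± 0.38 and -0.77 ± 0.33 (limma adjusted p = 0.186 for each).

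miR-669l-5p, also within Sfmbt2 and measured by 1 probe, stood at 4.13%, 3.73% and 3.42% in young kidney. It stood at 3.94%, 1.21% and 0.353% in aged kidney, with the last 2 arrays again under the floor. Its young level was close to the floor, which limits its difference of -0.30 ± 0.17 (limma adjusted p = 0.321). With a floor 8 times smaller, the differences were -2.03 for miR-466m-5p, -1.95 for miR-669e-5p and -1.66 for miR-669l-5p, each with a larger SE (limma adjusted p from 0.274 to 0.277). The authors' processed values are on a log2 scale, without the floor set here but with an apparent lowest value of their own. In them the 5 members other than miR-466i-5p had differences from -3.64 for miR-669n to -3.02 for miR-669e-5p (limma adjusted p from 0.358 to 0.437). The scanner software called none of these 5 present on aged array 3, so the size of those differences is not measured. Other settings made the differences smaller. With a floor 2 times larger they were -0.23 for miR-466m-5p, -0.11 for miR-669e-5p, 0 for miR-669l-5p and -0.80 for miR-466h-5p. With normexp background correction they were -0.68 for miR-669n, between -0.41 and -0.43 for miR-466h-5p, miR-669e-5p and miR-466m-5p, and -0.06 for miR-669l-5p. None of the 6 members passed the threshold under these 4 settings (limma adjusted p from 0.223 to 1).

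**Figure D2:**
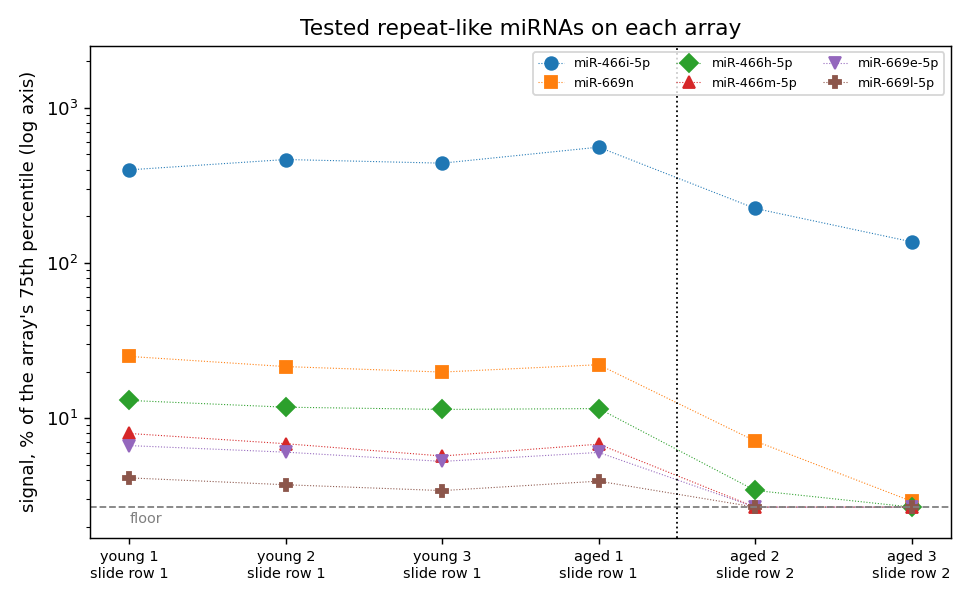
Signal of the 6 tested members on each array (percent of the array's 75th percentile, log axis; values under the dashed floor are drawn at it; the dotted vertical line separates the slide rows). The 4 arrays of slide row 1, young and aged, lie close together for each miRNA, and aged arrays 2 and 3 lie lower for all 6.

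Of these 6 tested members, 0 rose and 0 fell past the threshold (limma with Benjamini-Hochberg adjustment over all 193 tested miRNAs). Of the 193, 8 rose (4.15%) and 7 fell (3.63%), which is 7.77% in either direction. That split moved with the scaling, to 18 higher and 3 lower with the median over detected probes and to 13 higher and 1 lower with quantile normalization, with 0 members in either. When the 75th percentile was taken over every probe, 2 of the 6 members (miR-669n and miR-466h-5p) were lower past the threshold, where 5 of the 193 miRNAs were (2.59%). In that fit limma gave all 6 members the same SE (0.30), so these calls do not rest on each member's own scatter. The SE of miR-669n was 0.68 in the fit reported. The median difference of the 6 members was -0.83, against -0.08 over all tested. For 0 of the 6 were the groups free of overlap, while all 3 aged arrays lay below all young ones for 39 of the 193 miRNAs (20.2%) and above them for 20 (10.4%). Apart from miR-466i-5p, the tested members entered the test through detection on the young arrays, so their count and median describe them and support nothing.

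Within the aged group, the members' values differed between the slide rows. With row as a block, which leaves aged array 1 as the one aged array compared within a row, the difference was 0.36 ± 0.26 for miR-466i-5p and -0.06 ± 0.17 for miR-466h-5p. It was 0.0053 ± 0.19 for miR-466m-5p, 0.0131 ± 0.15 for miR-669e-5p, 0.0696 ± 0.14 for miR-669l-5p and 0.0067 ± 0.43 for miR-669n (limma adjusted p from 0.548 to 0.988 over the 6). In that fit 2 of the 193 miRNAs were higher past the threshold (1.04%) and 3 lower (1.55%), 2.59% in all, and 0 of the 6 members. These values rest on 1 aged array.

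Without aged array 1, when all aged arrays lay in row 2 and all young arrays in row 1, all 6 members were lower past the threshold. Their differences ran from -2.27 for miR-669n to -0.49 for miR-669l-5p (limma adjusted p from 0.000113 to 0.0259). For miR-466m-5p, miR-669e-5p and miR-669l-5p both remaining aged arrays stood at the floor. Their aged values thus had no scatter, and their p-values do not measure it. All but miR-466i-5p entered the test through the young arrays. Of the 193 miRNAs, 27 were then lower (14%) and 12 higher (6.22%). In that comparison age and slide row cannot be told apart.

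The 4 detected members that were not tested also read low on aged arrays 2 and 3. They counted as detected through arrays of slide row 1 alone, and all their values on aged arrays 2 and 3 lay under the floor of 2.68%. Their low values there therefore support nothing. miR-669o-5p was detected on 2 young arrays and aged array 1, at 4.80%, 4.43% and 3.83% in young and 4.29%, 1.38% and 0.673% in aged kidney. miR-669k-5p (1 young array and aged array 1) stood at 4.48%, 4.06% and 3.09%, then 4.36%, 1.43% and 0.911%. Both lay inside the young range on aged array 1 and below it on aged arrays 2 and 3. miR-669b-5p and miR-466j were detected on young array 1 alone. miR-669b-5p stood at 4.22%, 3.98% and 3.25% in young and 3.98%, 1.19% and -0.121% in aged kidney, and miR-466j at 4.72%, 3.60% and 3.16% and 3.68%, 0.885% and -0.305%. A value below 0 is a background-subtracted signal with nothing left above background.

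Members near the detection limit were low on aged arrays 2 and 3, by amounts that these arrays do not measure. Across the 13 members that the software called present, miR-466i-5p apart, aged array 1 stood at 89.5% to 112% of the young mean, aged array 2 at 13.1% to 36.9% and aged array 3 at -19.9% to 35.8%. Of these 13, miR-669n alone was well above background on aged array 2 and none was on aged array 3. By that mark the other percentages there are not measured proportions. The software's more permissive flag called 6 members present on aged array 2, miR-466i-5p among them, and miR-466i-5p alone on aged array 3. miR-466f-5p was lower on aged array 2 (17.6%) than on aged array 3 (35.8%). miR-466i-5p, with a far higher signal, stood at 128%, 51.8% and 31.6%. The young arrays spread little for these 14 members, with a coefficient of variation of 4.25% to 21.1%. This set was chosen by detection, which rests mostly on the arrays of row 1.

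**Figure D3:**
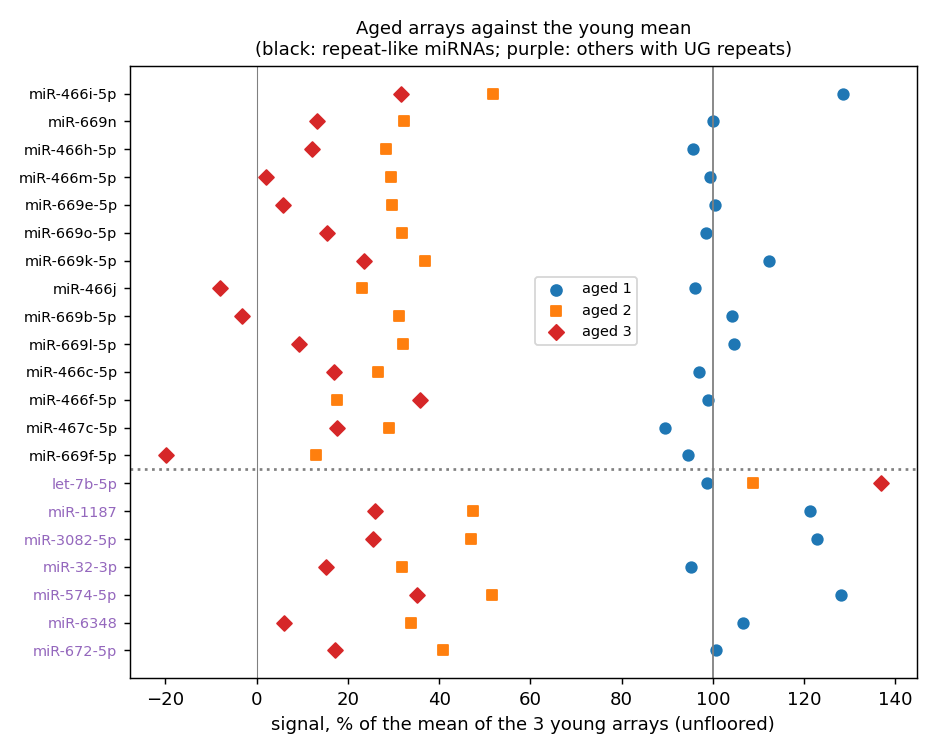
Signal on aged arrays 1, 2 and 3 as a percentage of the mean of the 3 young arrays, before any floor, for the 14 members called present by the scanner software (above the dotted line) and for 7 tested miRNAs outside the family whose sequence holds UGUGUG (below it). For all 14 members aged array 1 stands at 89.5% or more and aged arrays 2 and 3 stand under 52%, most of them there not well above background.

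The 6 tested members had 13 probes, each with 8 to 40 kept spots per array, and none of their spots was saturated (0 on all arrays). On aged array 2, 4 of the 13 probes were well above background, the 2 of miR-466i-5p and the 2 of miR-669n. The probes of miR-466i-5p stood there at 50.5% and 53.4% of their own young means and those of miR-669n at 31.7% and 32.9%. On aged array 3 only the 2 of miR-466i-5p were above background, at 31.2% and 32.0%. Probes of one miRNA did not always stand close, and the 4 of miR-466h-5p ranged from 73.5% to 117% on aged array 1, where 2 of them were not well above background. The 2 probes of miR-669n read 13.6% and 11.5% of the 75th percentile on young array 1, 3.81% and 3.33% on aged array 2 and 1.51% and 1.41% on aged array 3.

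Sums over whole arms use every member whether detected or not, and are carried by the detected ones. The 24 5p members other than miR-466i-5p summed to 64.5%, 57.2% and 54.2% of the 75th percentile on the young arrays. They summed to 58.2%, 16.7% and 9.95% on the aged arrays. The 26 3p members summed to 6.01%, -0.414% and 4.28% in young and to 3.23%, -2.12% and 3.46% in aged kidney, which is around 0 throughout. The 13 5p members that the software never called present summed to 7.25%, 6.65% and 7.46% in young and 6.97%, 1.82% and 4.49% in aged kidney, lowest on aged array 2.

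**Figure D4:**
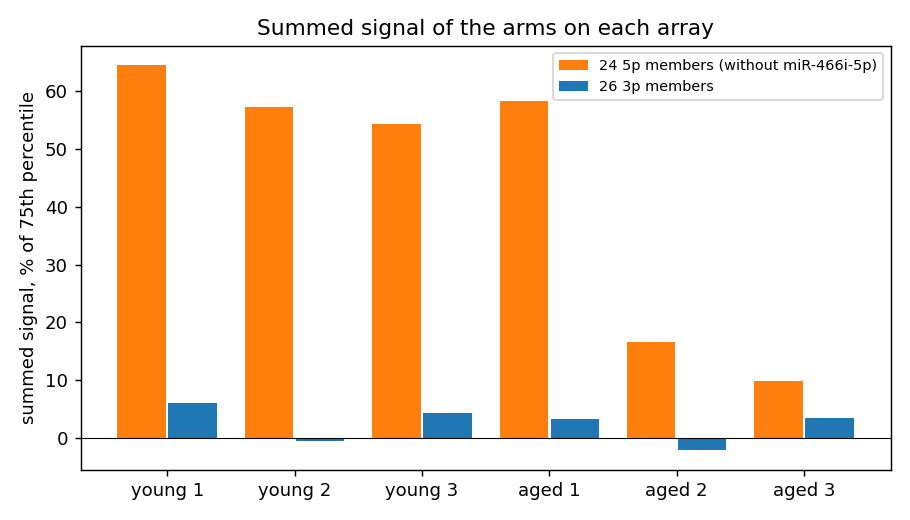
Summed signal (percent of the array's 75th percentile) of the 24 5p members other than miR-466i-5p and of the 26 3p members on each array, with bars starting at 0. The 5p sum is 54.2% or more on the 4 arrays of slide row 1 and 16.7% or less on aged arrays 2 and 3, while the 3p sum stays within -2.12% to 6.01%.

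As a share of the summed signal of all mouse miRNAs, the members held 0.980%, 1.03% and 0.989% on the young arrays. They held 1.23%, 0.526% and 0.275% on the aged arrays. The size of this share depended on the background correction: with normexp its mean was 2.27% in young and 1.96% in aged kidney, against 1.00% and 0.679% here. Most of it was miR-466i-5p, without which the shares were 0.203%, 0.153% and 0.157% in young and 0.167%, 0.0467% and 0.0332% in aged kidney. The number of members well above background was 10, 7 and 6 on the young arrays and 8, 2 and 1 on the aged arrays. Over all miRNAs it was 209, 193 and 200 in young and 201, 206 and 177 in aged kidney.

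Measures of the whole array were set beside the members' values. Over all 193 tested miRNAs the median departure from the young mean was -0.06, -0.09 and 0.00 (log2) on aged arrays 1, 2 and 3, and over the 6 members it was 0.01, -1.25 and -1.50. The 75th percentile was 1171 to 1415 intensity units in row 1 and 2054 and 1284 on aged arrays 2 and 3. The median negative control read 2.36 to 3.34 units on every array. Its mean was 6.85 units on aged array 1 and 3.04 to 4.21 on the other arrays. The 6 kidney marker miRNAs were detected on each of the 6 arrays, with sums of 2081% to 2369% in young and 2118% to 2429% in aged kidney. No other tissue was profiled, so these values do not test the tissue label. Erythroid markers (3 of 4 on the array) summed to 837% to 939% and 637% to 717%, and leukocyte markers (5 of 5) to 68.2% to 79.7% and 89.7% to 103%. Endothelial markers (2 of 2, with only 1 well above background on any array) summed to 621% to 684% and 664% to 723%. Markers of other organs (6 of 6, with 4 on no array above background) summed to 5.0% to 8.07% and 12.9% to 13.1%. The part of these cell types in the members' values was not tested.

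Low values on aged arrays 2 and 3 were also found outside the name family, in most of the tested miRNAs whose sequence holds UGUGUG. Of the 154 tested non-members with a RefSeq sequence, 7 held UGUGUG on the mature strand, listed here with the letters in capitals because they share no gene with the family. The motif UGUGUGU contains UGUGUG, and overlapping copies were counted together.
miR-574-5p: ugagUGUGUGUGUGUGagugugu
miR-1187: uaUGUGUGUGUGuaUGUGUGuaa
miR-3082-5p: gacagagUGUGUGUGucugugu
miR-32-3p: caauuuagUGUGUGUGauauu
miR-672-5p: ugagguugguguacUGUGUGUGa
miR-6348: ucagccuuuauaaggUGUGUGu
let-7b-5p: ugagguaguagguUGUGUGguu

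The first 6 also hold the longer UGUGUGU, and let-7b-5p does not. The shorter UGUGU without UGUGUG was held by 1 further tested non-member, which was low on aged array 1 as well. It stood at -0.70, -0.37 and -0.71 from the young mean (log2) on aged arrays 1, 2 and 3. miR-574-5p, known to bind the RNA-binding protein CELF1 through its repeat, stood at 0.36, -0.95 and -1.50 from the young mean (log2) on aged arrays 1, 2 and 3. On the same scale miR-1187 stood at 0.28, -1.08 and -1.95 and miR-3082-5p at 0.30, -1.09 and -1.98. These 3 miRNAs were well above background on all 6 arrays, so the filter on low values did not choose them by age.

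miR-32-3p, the passenger arm of miR-32, stood at -0.07, -1.65 and -2.38 on aged arrays 1, 2 and 3. miR-672-5p stood at 0.02, -1.29 and -1.56 and miR-6348 at 0.10, -1.36 and -1.36. On aged array 3 all 3 lay under the floor, and miR-6348 on aged array 2 as well, so these departures are set by the floor. let-7b-5p, of the let-7 family and abundant in kidney, stood at -0.02, 0.12 and 0.45, in the other direction. None of the 7 passed the test between ages (limma adjusted p from 0.182 to 0.393).

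A signal at 2-fold or further under the young mean, on aged array 2 and on aged array 3 alike, was shown by 4 of the 6 tested members and by 5 of the 7 non-members with UGUGUG. Floored values were used, so a miRNA with a young level less than 2-fold above the floor could not meet this rule in any class. miR-669l-5p, at -0.49 on both arrays with both at the floor, is thus counted as not meeting it. Those 4 members, and miR-32-3p, miR-672-5p and miR-6348 of the 5, entered the test through the young arrays, where they were high. Their low values therefore support nothing. The others of the 5, miR-1187 and miR-3082-5p, were well above background on all 6 arrays. Of 147 tested non-members with a sequence and no such letters, 1 showed it, miR-551b-3p, which was low on aged array 1 as well (-1.41). Of 33 tested non-members without a RefSeq sequence 2 did, miR-1196-5p and miR-468-3p, named after their values were seen. The median departure on aged array 2 was -1.09 for the 7 with UGUGUG and -0.06 for the 147 without, and on aged array 3 -1.56 and 0.01, where -1.56 is the value of miR-672-5p at the floor. Among the 80 tested non-members with a young signal below that of miR-669n, the medians were -0.16 and -0.01, and 5 showed such a signal. All 5 are counted above: miR-32-3p, miR-672-5p and miR-6348 with UGUGUG, miR-551b-3p without it and miR-1196-5p without a sequence. These are descriptions of classes set by sequence or signal, with no test of the difference. The lists were chosen with earlier results of these data known. The class of 7 includes miR-32-3p, miR-672-5p and miR-6348, so its counts and medians are no independent support for a part played by the sequence.

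**Figure D5:**
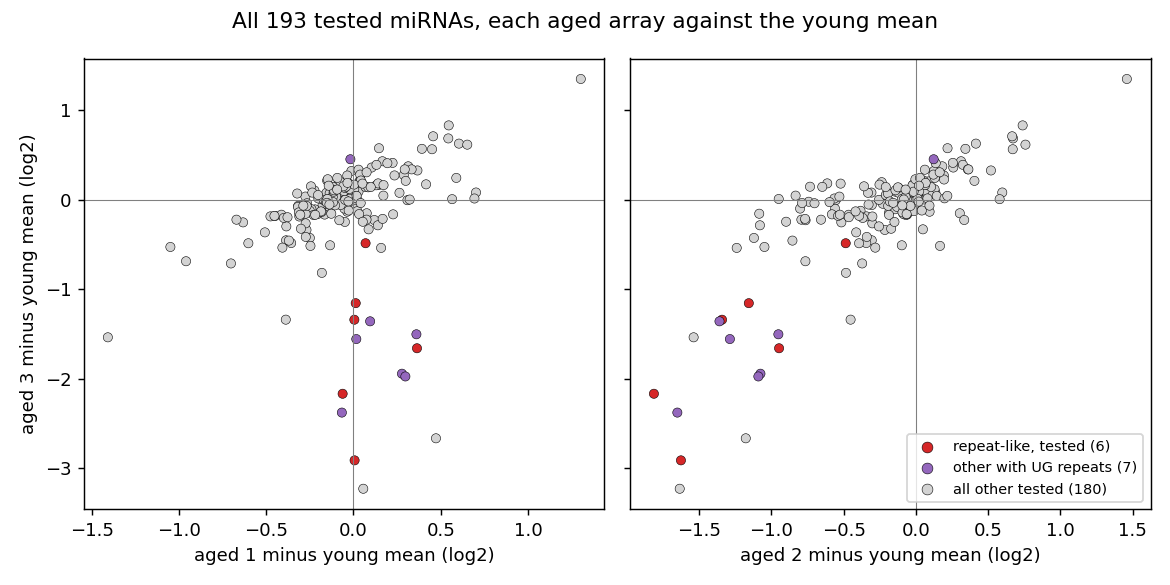
Each of the 193 tested miRNAs by its departure from the young mean (log2) on aged array 3 (vertical) against aged array 1 (left) and aged array 2 (right), with the 6 tested members in red, 7 others with UGUGUG in purple and the remaining 180 in grey. Members and all purple points but let-7b-5p lie low on aged arrays 2 and 3 and near or above 0 on aged array 1.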

How the data were processed

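The members and lists were chosen with earlier results of these data known. Per the file headers, arrays of design 046065 were read with Feature Extraction 11.5.1.1, and the deposited spot intensity is background-subtracted and not scaled between arrays. The authors also deposited processed log2 values, used as an alternative. Set against log2 of the scanner software's total gene signal they differ by 1 shift per array (largest departure 1.02e-05), with medians of -9.74, -9.21, -9.21, -9.49, -10.10 and -9.20, and no source used here states how the shift was chosen. With the shift added back, the median was the same on every array, as where many miRNAs hold a fixed lowest value. Flags for spots are those deposited. Per probe, processed intensity was averaged over spots that were not outliers, scaled by each array's 75th percentile (taken over 315 probes that passed the mark on every one of the 6 arrays), summed per miRNA, floored at -5.22 (log2) and logged. miRNAs well above background on all 3 arrays of a group (193) entered the test of aged against young by limma 3.58.1, run under R 4.3.3 (threshold 0.05). The fit was tested on simulated data with the same scatter for every miRNA in both groups and no floor. The members' values differ in both respects, so that test does not cover them. In the normexp alternative (offset 50), the median spot signal took the place of the planned mean. Named were all tested or detected members, the brightest of each subfamily and arm, and tested non-members with UGUGUG. Sequences are RefSeq's (GRCm38.p6, by name, 1017 of 1247 matched); the array design's mm9 positions were not used. The number of arrays limits the precision. Figures were drawn with matplotlib 3.10.9.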

Additional observations from a re-analysis of the deposited data

How the results depend on the processing

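For the members, 0 were higher past the threshold under every alternative run. The count of lower members was 0 under all but 2: it was 2 (miR-669n and miR-466h-5p) when the 75th percentile was taken over every probe, and 6 without aged array 1, so that leaving out 1 array gave 0 to 6. With the percentile over every probe, limma gave all members the same SE, whatever their own scatter. With slide row as a block, or with the arrays of row 1 alone (added after the data were seen), 5 differences changed sign, to 0.36 for miR-466i-5p, 0.0053 for miR-466m-5p, 0.0131 for miR-669e-5p, 0.0067 for miR-669n and 0.0696 for miR-669l-5p. Relative to the fit reported, the median of all tested miRNAs shifted by 0.41 (75th percentile, all probes), 0.20 (no scaling), 0.14 (median scaling) and 0.11 (authors' values). Over all tested miRNAs (8 higher, 7 lower) the counts were 4 and 0 with normexp, 18 and 3 with the median over detected probes, 13 and 1 with quantile normalization, 1 and 1 without scaling, 10 and 0 in the authors' values, 6 and 2 with total gene signal, 4 and 2 without a detection filter, and 2 and 3 with slide row as a block. Leaving out 1 array gave 3 to 12 higher and 2 to 27 lower. With the replicate number as a block 2 were higher and 1 lower, and 0 members passed. Same-numbered arrays did not deviate together (r = 0.12, -0.58 and 0.31), so the numbers were not taken as pairs. The median of non-members without UGUGUG, -0.05, was 0.091 with the median over detected probes. The cause of these changes was not tested. The floor was reached on an aged array by miR-466h-5p, miR-466m-5p, miR-669e-5p and miR-669l-5p, which limits the size of those differences.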
